A study of Mus musculus with 6 samples.

Results

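Hox genes encode homeodomain transcription factors, and mammals keep them in 4 clusters named HoxA, HoxB, HoxC and HoxD. Within a cluster each gene carries a paralog number. Low numbers lie at the 3' end and are used from the hindbrain downwards, whereas high numbers lie at the 5' end and are used in the lumbosacral trunk and the outer limb. Cells of limb connective tissue and adult muscle stem cells keep a part of the Hox pattern of the body region they came from, so that the set of Hox mRNAs in a culture carries information on position. The Hox genes were taken here as every protein-coding gene of the count table whose symbol is Hoxa, Hoxb, Hoxc or Hoxd with a number. This rule was met by 40 of 54532 genes. The 39 described here have 38 symbols, because Hoxd4 is listed under 2 identifiers, and all counts and sums below are over them. Of the 39, 29 passed the expression filter of edgeR, as did 14679 genes of the whole table.

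The RNA came from primary myoblasts, the proliferating progeny of muscle stem cells, isolated from hind-limb muscles of 3-week-old mice and collected at day 2 in medium with 10 µg/mL FGF. There were 3 libraries from WT cells and 3 from eIF5A-KO cells. The knockout mice carried Pax7CreERT2/+ and eIF5A f/f and had received tamoxifen, so that recombination was limited to cells expressing Pax7, and the WT mice were littermates, described by the study both as Pax7CreERT2/+ and as Pax7+/+ with eIF5A f/f. The cells were released with dispase and collagenase and filtered, and no sort was described for them. The paper gives such a digestion for muscle stem cells of adult mice, where a sort followed. The labels do not say that the libraries came from separate mice, so that p-values measure the spread between these libraries, which may be technical. Eif5a, the gene that the knockout targets, did not separate the genotypes. It had 1603, 986 and 1238 CPM (counts relative to the TMM-scaled library total) in WT replicates 1 to 3 and 1364, 1459 and 1059 CPM in replicates 1 to 3 labelled eIF5A-KO. Its log2 fold change was 0.02 (95% interval -0.51 to 0.55, adjusted p = 0.993 by edgeR), and every direction below refers to the libraries by their labels. In muscle stem cells of these mouse lines the study measured the knockout by RT-qPCR and immunostaining, and it reports that the knockout was established.

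Total counts ranged from 16281216 to 17734551 per library. The mitochondrial share of counts was 5.75% in WT replicate 1 and 2.11% to 3.50% in the other libraries. The lists of markers of other cell types were all measured, and none of their genes was at 0 in all libraries. Summed over each list, myogenic markers had 699.8 to 1803 CPM in WT and 627 to 1194 CPM in the libraries labelled eIF5A-KO, with 3 of 8 lower at an unadjusted p under 0.05, beside 4.02% of all tested genes. Fibroblast markers had 2496 to 3303 and 2386 to 2990 CPM. Endothelial markers had 998 to 2238 and 1866 to 2937 CPM. Mural markers, those of pericytes and smooth muscle, had 371 to 629 CPM in WT and 723 to 785 CPM in the libraries labelled eIF5A-KO, with 4 of 8 higher at an unadjusted p under 0.05, beside 2.74% of all tested genes, and 1 of them also after adjustment, beside 0.0204%. With library size alone, among other settings given below, no gene passed the adjustment. Macrophage markers had 59.7 to 129.9 and 65.0 to 160.2 CPM, Schwann cell markers 104 to 163 and 175 to 211 CPM, tendon markers 17.7 to 22.2 and 10.9 to 17.1 CPM, and cartilage markers 20.9 to 45.0 and 35.5 to 50.2 CPM. By the same unadjusted limit 1 of 8 fibroblast, 1 of 7 endothelial, 1 of 6 macrophage and 1 of 4 Schwann cell markers were higher, 1 of 3 tendon markers was lower and no cartilage marker passed. The summed mural and Schwann cell markers were higher without overlap of the groups, and the tendon markers lower. Most of these tissues use Hox genes too, and the part of cell makeup in the Hox values was not tested.

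Each Hox cluster occupies a short stretch of the genome in which all members share a strand. In the coordinates of the count table (GRCm38), the HoxA genes described lie within 52162417 to 52260880 of chromosome 6 and read from the minus strand. The other clusters read from the plus strand, HoxB over 96194316 to 96368256 of chromosome 11, HoxC over 102921103 to 103036852 of chromosome 15 and HoxD over 74668310 to 74765142 of chromosome 2. RefSeq start regions on GRCm38.p6, running from 250 bases before to 50 bases after a start site, were at hand for 22 Hox symbols, 15 of them tested. Of these, 4 are shown, because they stand for the range of levels measured here: Hoxd8 had the highest level per length of all Hox genes, Hoxa10 was the highest of HoxA, and Hoxb1 and Hoxd12 had no count in any library. The Hoxd8 window is chr2:74704365-74704664 on the plus strand, the Hoxa10 window chr6:52240805-52241104 on the minus strand, the Hoxb1 window chr11:96365508-96365807 on the plus strand, and the Hoxd12 window chr2:74674763-74675062 on the plus strand. Capitals mark CG dinucleotides, the sites of DNA methylation.
Hoxd8: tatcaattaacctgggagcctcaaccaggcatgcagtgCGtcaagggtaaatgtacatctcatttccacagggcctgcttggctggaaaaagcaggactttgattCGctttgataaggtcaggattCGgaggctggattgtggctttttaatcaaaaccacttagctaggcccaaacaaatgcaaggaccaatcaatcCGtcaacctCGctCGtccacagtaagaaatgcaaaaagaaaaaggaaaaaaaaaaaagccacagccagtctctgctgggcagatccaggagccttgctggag
Hoxa10: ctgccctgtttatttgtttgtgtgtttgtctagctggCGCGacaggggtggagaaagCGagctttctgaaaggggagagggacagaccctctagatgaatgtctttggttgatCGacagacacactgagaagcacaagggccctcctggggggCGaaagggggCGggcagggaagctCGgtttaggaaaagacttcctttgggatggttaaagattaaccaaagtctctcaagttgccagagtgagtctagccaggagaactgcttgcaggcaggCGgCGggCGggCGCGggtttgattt
Hoxb1: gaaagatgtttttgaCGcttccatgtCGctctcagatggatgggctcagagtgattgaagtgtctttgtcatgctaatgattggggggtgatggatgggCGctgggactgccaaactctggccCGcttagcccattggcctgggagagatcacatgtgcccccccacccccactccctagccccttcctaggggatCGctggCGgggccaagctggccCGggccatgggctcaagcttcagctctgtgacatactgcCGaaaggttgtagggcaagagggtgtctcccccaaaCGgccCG
Hoxd12: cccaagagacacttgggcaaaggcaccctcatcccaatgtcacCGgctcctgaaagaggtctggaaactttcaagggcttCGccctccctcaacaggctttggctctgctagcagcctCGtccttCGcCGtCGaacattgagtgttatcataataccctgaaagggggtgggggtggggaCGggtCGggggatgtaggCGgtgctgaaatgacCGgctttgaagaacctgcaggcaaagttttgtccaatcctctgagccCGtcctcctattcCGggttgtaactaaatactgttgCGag
The number of CG was 6 in the Hoxd8 window, 12 in that of Hoxa10, 10 in that of Hoxb1 and 13 in that of Hoxd12. Over the 22 Hox windows the median was 13.5 CG, beside 7 CG over 32851 windows of all genes. The 15 windows of tested Hox genes had a median of 13 CG (range 4 to 29) and the 7 others a median of 20 CG (range 4 to 45, the highest at Hoxa13), so that in these windows the CG number did not separate the Hox genes that passed the filter from those that did not. The letters CCAAT, read on both strands, were found in 14 of 22 Hox windows (63.6%) and in 37.4% of all windows. TATAAA was found in 3 of them (13.6%, as in 13.6% of all windows). TGATNNAT, the letters that PBX and Hox proteins read together, was found in the windows of Hoxa2, Hoxb1 and Hoxb8 (13.6%, beside 8.85% of all windows). These are matches of letters and no measurement of binding.

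Hox mRNAs were present over most of the clusters, at low levels. Levels are compared between genes in FPKM, which divides by gene length. The median of the 29 tested Hox genes was 2.10 FPKM, beside 5.14 FPKM over all tested genes, and 5 of the 29 were above the latter value. Hoxd8 was highest with a mean of 8.27 FPKM over the 6 libraries, followed by Hoxc10 with 7.69, Hoxb7 with 6.45, Hoxa10 with 5.64 and Hoxa7 with 5.19 FPKM. Hoxd9 (4.42), Hoxc6 (3.89), Hoxa11 (3.78), Hoxc11 (3.63) and Hoxc9 (3.14 FPKM) came next. The order between neighbours is loose, since the ranges over the 6 libraries overlapped for every neighbouring pair in it. In all, 19 Hox genes had a mean of at least 1 FPKM.

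**Figure D1:**
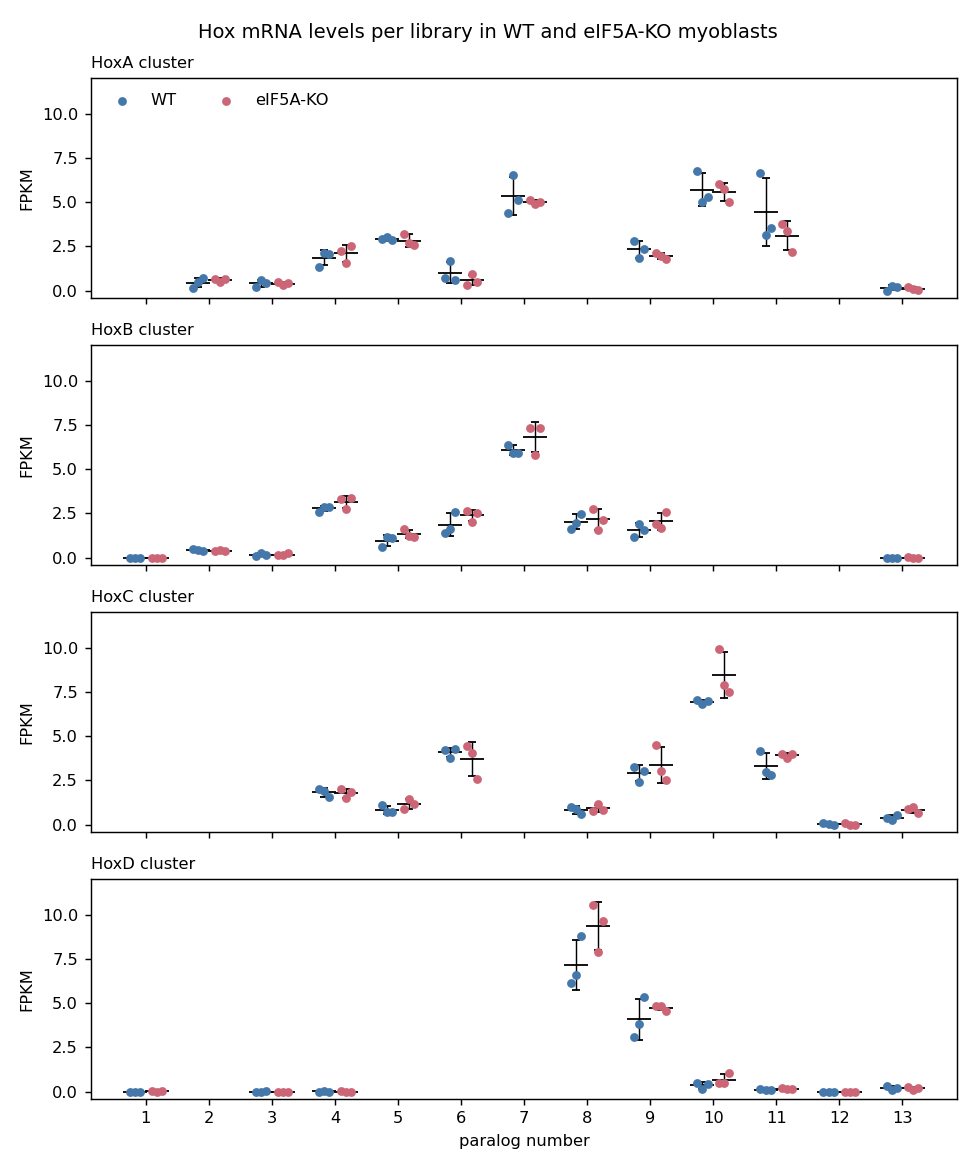
FPKM of each Hox gene (vertical axis) by paralog number (horizontal axis), with 1 panel per cluster. Points are the 3 libraries of each genotype label, bars are means and whiskers SD, and the 2 identifiers of Hoxd4 are summed. The highest means, 8.27 down to 5.19 FPKM, are those of Hoxd8, Hoxc10, Hoxb7, Hoxa10 and Hoxa7, whereas Hoxd10 and Hoxd11 are at 0.516 and 0.146 FPKM. Levels are near 0 in paralogs 1 to 4 of HoxD. Positions without a bar carry no value.

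Paralogs 1 to 3, the genes of the hindbrain and neck, made up little of the Hox signal. Their share of the summed Hox FPKM was 1.29%, 2.55% and 2.27% in WT replicates 1 to 3 and 1.91%, 1.84% and 2.32% in replicates 1 to 3 labelled eIF5A-KO. Paralogs 4 to 8, used along the neck and thorax, held 49.4%, 57.1% and 54.8% in WT and 53.6%, 52.6% and 55.9% in the libraries labelled eIF5A-KO. Paralogs 9 to 13, used in the posterior trunk and limb, held 49.3%, 40.4% and 42.9% in WT and 44.5%, 45.6% and 41.8% in the libraries labelled eIF5A-KO. The ranges of the genotypes overlapped for each of these shares. Within single clusters the share of paralogs 9 to 13 overlapped in HoxA, HoxB and HoxD, whereas in HoxC it was 64.3%, 63.4% and 65.2% in WT and 70.5%, 66.1% and 69.4% in the libraries labelled eIF5A-KO, higher without overlap and not tested. Summed over the clusters, little of the posterior level lay beyond paralog 11: paralog group 12 held 0% to 0.167% and paralog group 13 held 0.862% to 1.59% of the summed Hox FPKM of a library. In HoxD the level fell earlier, from a mean of 4.42 FPKM for Hoxd9 to 0.516 for Hoxd10 and 0.146 for Hoxd11, below the 0.625 FPKM of Hoxc13 and the 0.196 FPKM of Hoxd13.

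The 10 Hox genes that did not pass the filter were Hoxa13 of HoxA, Hoxb1 and Hoxb13 of HoxB, Hoxc12 of HoxC, and Hoxd1, Hoxd3, Hoxd12, Hoxd13 and both identifiers of Hoxd4 of HoxD. Hoxb1, a hindbrain gene, and Hoxd12 had no count in any library, which at 3 counts over all 6 libraries allows a level of up to 0.0294 CPM. Counting error alone sets that limit. Hoxb13, Hoxd3 and 1 identifier of Hoxd4 had 1 count each, Hoxd1 had 2, the other identifier of Hoxd4 had 3 and Hoxc12 had 5 counts in all 6 libraries together. Hoxa13 and Hoxd13, which pattern the hand and foot plates, were less empty, with 34 and 49 counts. Hoxa13 had 0, 13 and 8 counts in WT and 8, 4 and 1 in the libraries labelled eIF5A-KO, and Hoxd13 had 13, 4 and 8 counts in WT and 12, 4 and 8 in the libraries labelled eIF5A-KO. No fold change is given for these genes, since each is at or near the floor of 3 counts in libraries of both genotypes. In HoxD the low counts adjoin each other: from Hoxd1 to Hoxd4 at most 2 counts were found in a library for any identifier, whereas the neighbouring Hoxd8 had 264 to 479. The annotation overlaps there. In the GENCODE vM21 annotation Hoxd3 shares 53.1% of its exonic bases with Gm28230 on the same strand, which had 9 counts in all 6 libraries together. The first Hoxd4 identifier shares 39.1% there, but its model in that annotation has 2948 exonic bases against 2323 in the count table. The span of the second Hoxd4 identifier, 74721978 to 74729160, lies almost wholly over that of the first, 74711929 to 74729123. How reads on overlapping genes were counted is not stated, so that reads of Hoxd3 and Hoxd4 may have been left unassigned and their counts do not show absence.

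Between the genotypes no Hox gene had an adjusted p under 0.05 by edgeR, where 3 of all tested genes did (0.0204%), and the smallest adjusted p of the Hox genes described was 0.630. Of the 29 described and tested, 1 had an unadjusted p under 0.05, Hoxc13, which is 3.45% beside 6.76% of all tested genes. It was higher in the libraries labelled eIF5A-KO, where 2.74% of all tested genes were higher and 4.02% lower by the same limit. It was also past the criterion that the study states, a fold change over 2 with p under 0.05, which 1.85% of all tested genes met. The groups did not overlap in CPM for 3 Hox genes, Hoxc10, Hoxc13 and Hoxd11, all higher in the libraries labelled eIF5A-KO, beside 5.68% of all tested genes higher and 6.83% lower without overlap. These 3 are 10.3% of the tested Hox genes, beside 12.5% of all tested genes without overlap in either direction.

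The log2 fold changes, eIF5A-KO over WT, were above 0 for 19 Hox genes and below 0 for 10, with a median of 0.17, where 48.3% of all tested genes were above 0 and their median was -0.01. For 24 of the 29 Hox genes the log2 fold change was under 0.5 in size. The 95% interval of the fold change lay within 2-fold in either direction for 18 of the 29 (62.1%), beside 70.7% of all tested genes, so that for those 18 a change of 2-fold or more was outside the interval. The highest level over the 6 libraries was in replicate 1 labelled eIF5A-KO for 10 of the 29 genes and the lowest was in WT replicate 1 for 11 of them. WT replicate 1 is also the library with the highest mitochondrial share, and it was the highest library for 6 Hox genes. Such counts were not made over all tested genes, so that they do not set the Hox genes apart.

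**Figure D2:**
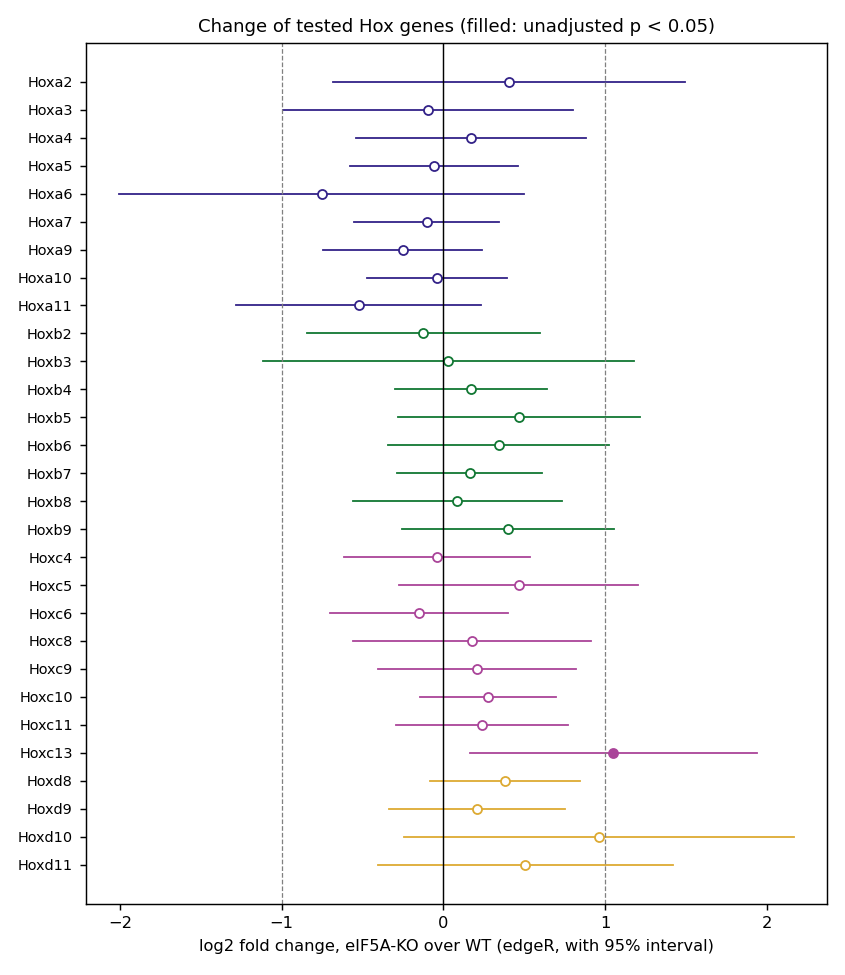
Log2 fold change of 29 tested Hox genes, eIF5A-KO over WT, by edgeR (points) with 95% intervals (lines), coloured by cluster and ordered by paralog number. Filled points have an unadjusted p under 0.05 and dashed lines mark 2-fold. The interval of Hoxc13 lies above 0 and those of the other genes shown cross it.

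Hoxc13 (ENSMUSG00000001655, chromosome 15, 102921103 to 102928814), known for its part in hair and nail formation, lies at the 5' end of its cluster and had the largest log2 fold change of the Hox genes described. Its counts were 15, 12 and 24 in WT and 35, 42 and 29 in the libraries labelled eIF5A-KO. In CPM these are 0.969, 0.636 and 1.42, a mean of 1.01 ± 0.392 (SD, n = 3), and 2.14, 2.49 and 1.64, a mean of 2.09 ± 0.424 (SD, n = 3). The groups did not overlap, although WT replicate 3 and replicate 3 labelled eIF5A-KO were near each other. The difference on the log2 scale was 1.05 (standard error 0.39, 95% interval 0.17 to 1.94), a 2.07-fold difference with an interval of 1.12 to 3.83, with an unadjusted p of 0.0248 and an adjusted p of 0.630 by edgeR. The unadjusted p was under 0.05 in 14 of the 17 alternative settings. By edgeR it was 0.0850 without WT replicate 2, 0.0586 without replicate 1 labelled eIF5A-KO and 0.0917 without replicate 2 labelled eIF5A-KO, and the adjusted p was 0.474 or more in all 17. No other annotated gene shares exonic bases with Hoxc13. Hoxc13 was among the lower Hox genes per length, with a mean of 0.625 FPKM, at percentile 13.4 of all tested genes. Because the RNA is from mixed cells, more cells that use Hoxc13 and more Hoxc13 RNA per cell cannot be told apart, and this holds for every gene below.

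**Figure D3:**
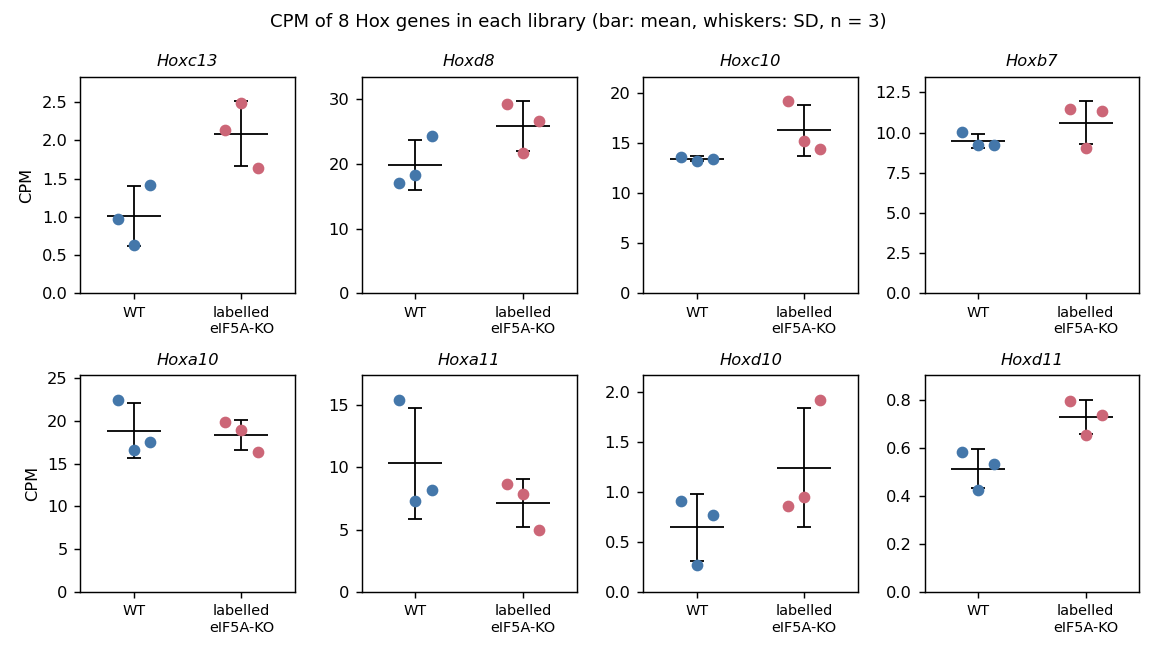
CPM (vertical axes, each from 0) of 8 Hox genes in the 3 WT libraries and the 3 libraries labelled eIF5A-KO, with the mean (bar) and SD (whiskers). The groups are apart for Hoxc13, Hoxc10 and Hoxd11 and overlap for the other 5 genes.

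In HoxA, 9 of 10 genes were tested, 2 with a log2 fold change above 0 and 7 below, with a median of -0.10. Hoxa10 (ENSMUSG00000000938), which acts in the lumbar spine and upper hind limb and is used in adult limb muscle stem cells, had 22.5, 16.6 and 17.5 CPM in WT and 19.8, 18.9 and 16.4 CPM in the libraries labelled eIF5A-KO. The groups overlapped, and the log2 fold change was -0.04 (standard error 0.19, 95% interval -0.47 to 0.39, adjusted p = 0.986 by edgeR). Hoxa7 (ENSMUSG00000038236), a gene of the thorax, had 12.9, 19.0 and 14.9 CPM in WT and 14.9, 14.2 and 14.5 CPM in the libraries labelled eIF5A-KO, with a log2 fold change of -0.10 (standard error 0.20, 95% interval -0.55 to 0.35, adjusted p = 0.967). WT replicate 2 alone stood above the rest. Hoxa11 (ENSMUSG00000038210), which patterns the lower leg and forearm, had 15.4, 7.27 and 8.21 CPM in WT and 8.69, 7.82 and 4.99 CPM in the libraries labelled eIF5A-KO. WT replicate 1 held about as much Hoxa11 as the other WT libraries together, and the log2 fold change of -0.52 (standard error 0.34, 95% interval -1.28 to 0.24, adjusted p = 0.866) was -0.10 without it. Hoxa11 shares 35.0% of its exonic bases with Hoxa11os on the opposite strand. The counting was not stated to use strand, so that reads there cannot be told apart. Hoxa11os had 4.65, 2.86 and 2.24 CPM in WT, highest in the same library, and 3.55, 3.02 and 2.55 CPM in the libraries labelled eIF5A-KO.

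The other HoxA genes showed no separation of the groups. Hoxa5, a gene of the neck and thorax, was the steadiest, between 4.82 and 6.12 CPM in all 6 libraries, with a log2 fold change of -0.06. Hoxa9, which acts in blood stem cells and rises in muscle stem cells of old mice, had 16.0, 10.3 and 13.2 CPM in WT and 12.1, 11.1 and 10.1 CPM in the libraries labelled eIF5A-KO, with a log2 fold change of -0.25 (95% interval -0.74 to 0.24). Hoxa6 had the most negative log2 fold change of all Hox genes, -0.75, with an interval from -2.01 to 0.50, and rested on 5 to 28 counts per library. Without WT replicate 2 it was -0.15, and without other single libraries it was -0.47 to -1.21. Hoxa2, Hoxa3 and Hoxa4 had log2 fold changes of 0.41, -0.10 and 0.17 at means of 0.961, 2.52 and 3.18 CPM. When single libraries were left out, Hoxa2 ranged from 0.05 to 0.81, Hoxa4 from 0.0050 to 0.36 and Hoxa9 from -0.40 to -0.08 on the log2 scale, with the value nearest 0 for Hoxa2 and Hoxa4 being that without WT replicate 1.

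In HoxB, 8 of 10 genes were tested, 7 with a log2 fold change above 0 and 1 below, with a median of 0.17. Hoxb7 (ENSMUSG00000038721) had 10.0, 9.23 and 9.21 CPM in WT and 11.4, 9.06 and 11.3 CPM in the libraries labelled eIF5A-KO. Its log2 fold change was 0.16 (standard error 0.20, 95% interval -0.29 to 0.61, adjusted p = 0.945 by edgeR). Hoxb4 (ENSMUSG00000038692), known for the renewal of blood stem cells, had 6.79, 7.42 and 7.44 CPM in WT and 8.57, 7.16 and 8.67 CPM in the libraries labelled eIF5A-KO, with a log2 fold change of 0.17 (standard error 0.21, 95% interval -0.30 to 0.64, adjusted p = 0.945). For both genes replicate 2 labelled eIF5A-KO lay within or below the WT values and the other 2 above them. Hoxb6 (ENSMUSG00000000690) had 2.78, 3.24 and 5.14 CPM in WT and 5.20, 4.03 and 4.93 CPM in the libraries labelled eIF5A-KO, with a log2 fold change of 0.34 (standard error 0.30, 95% interval -0.34 to 1.03, adjusted p = 0.915). Hoxb5 and Hoxb9 had log2 fold changes of 0.47 and 0.40, Hoxb8 of 0.09, Hoxb3 of 0.03 and Hoxb2 of -0.12. Leaving out single libraries gave 0.11 to 0.27 for Hoxb7, 0.13 to 0.26 for Hoxb4, 0.18 to 0.65 for Hoxb6, 0.23 to 0.65 for Hoxb5, 0.20 to 0.58 for Hoxb9 and -0.21 to -0.05 for Hoxb2. The anterior genes Hoxb2 and Hoxb3 were low, at 0.420 and 0.175 FPKM, and share 27.3% and 52.9% of their exonic bases with the opposite-strand gene Hoxb3os.

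In HoxC, 8 of 9 genes were tested, 6 with a log2 fold change above 0 and 2 below, with a median of 0.22. Hoxc10 (ENSMUSG00000022484), a gene of the lumbar trunk and hind limb, had 13.6, 13.2 and 13.4 CPM in WT and 19.1, 15.2 and 14.3 CPM in the libraries labelled eIF5A-KO. The WT libraries were close together, at 13.4 ± 0.242 CPM (SD, n = 3), and all were below the lowest library labelled eIF5A-KO. On the log2 scale the difference was 0.28 (standard error 0.19, 95% interval -0.15 to 0.70), with an unadjusted p of 0.174 and an adjusted p of 0.877 by edgeR, and it was 0.15 to 0.36 when single libraries were left out. Hoxc6 (ENSMUSG00000001661) had 10.3, 9.17 and 10.4 CPM in WT and 10.8, 9.77 and 6.29 CPM in the libraries labelled eIF5A-KO, with a log2 fold change of -0.15 (standard error 0.24, 95% interval -0.70 to 0.40, adjusted p = 0.959). Replicate 3 labelled eIF5A-KO alone was low. Hoxc11 (ENSMUSG00000001656), used in the lumbosacral trunk, had 8.60, 6.10 and 5.67 CPM in WT and 8.14, 7.70 and 8.16 CPM in the libraries labelled eIF5A-KO, with a log2 fold change of 0.24 (standard error 0.24, 95% interval -0.29 to 0.77, adjusted p = 0.924), and it was 0.13 to 0.45 when single libraries were left out.

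Of the rest of HoxC, Hoxc9, which sets thoracic motor neuron identity, had 8.08, 5.94 and 7.44 CPM in WT and 11.1, 7.46 and 6.24 CPM in the libraries labelled eIF5A-KO, with a log2 fold change of 0.21. Hoxc4 and Hoxc8 had log2 fold changes of -0.04 and 0.18. Hoxc5 had a log2 fold change of 0.47 with an interval from -0.27 to 1.20, and 0.30 to 0.73 when single libraries were left out. The annotated span of Hoxc5 reaches from 102967443 to 103017429, and it shares 166 exonic bases with Hoxc10, so that reads in that stretch could have been counted on either gene.

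In HoxD, 4 of 10 genes were tested, all with a log2 fold change above 0 and with a median of 0.44. Hoxd8 (ENSMUSG00000027102, chromosome 2, 74704615 to 74707933), whose start region is shown above and which is used in the trunk, had 17.1, 18.2 and 24.3 CPM in WT and 29.3, 21.7 and 26.6 CPM in the libraries labelled eIF5A-KO. WT replicate 3 lay above replicate 2 labelled eIF5A-KO, so that the groups overlapped. The means were 19.9 ± 3.87 and 25.9 ± 3.84 CPM (SD, n = 3 each), and the log2 fold change was 0.38 (standard error 0.21, 95% interval -0.08 to 0.85), with an unadjusted p of 0.0948 and an adjusted p of 0.815 by edgeR. Hoxd9 (ENSMUSG00000043342) had 6.66, 8.27 and 11.6 CPM in WT and 10.5, 10.4 and 9.81 CPM in the libraries labelled eIF5A-KO, with a log2 fold change of 0.21 (standard error 0.24, 95% interval -0.34 to 0.75, adjusted p = 0.941). Without WT replicate 1 the log2 fold change was 0.05 and without WT replicate 3 it was 0.45. Hoxd10 (ENSMUSG00000050368), which acts in lumbar motor neurons and the limb, had 14, 5 and 13 counts in WT and 14, 16 and 34 counts in the libraries labelled eIF5A-KO. Its log2 fold change of 0.96 (standard error 0.54, 95% interval -0.24 to 2.17, adjusted p = 0.819) was 0.50 when replicate 3 labelled eIF5A-KO was left out and 0.58 when WT replicate 2 was. Hoxd11, a partner of Hoxa11 in the lower limb, had 9, 8 and 9 counts in WT and 13, 11 and 13 counts in the libraries labelled eIF5A-KO. These groups did not overlap, but the counts were few and the interval of the log2 fold change, 0.51, was -0.41 to 1.42 with an unadjusted p of 0.242.

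Summed over the Hox genes, the level was 73.9, 71.5 and 75.7 FPKM in WT and 88.3, 75.2 and 77.3 FPKM in the libraries labelled eIF5A-KO. WT replicate 3 lay above replicate 2 labelled eIF5A-KO, so that the sums overlapped, and the sum of replicate 1 labelled eIF5A-KO stood above the rest. HoxA took 35.3%, 34.6% and 30.7% of this sum in WT and 27.4%, 29.4% and 26.7% in the libraries labelled eIF5A-KO, without overlap. HoxB took 19.4% to 22.6% in WT and 20.9% to 25.5% in the libraries labelled eIF5A-KO, HoxC 27.0% to 31.6% and 27.4% to 31.7%, and HoxD 13.7% to 19.7% and 17.9% to 20.3%, and each of these 3 overlapped. The summed HoxA level itself was 26.0, 24.7 and 23.2 FPKM in WT and 24.2, 22.1 and 20.7 FPKM in the libraries labelled eIF5A-KO, with overlap. These shares are descriptions of 6 libraries without a test, and each share moves with the other clusters.

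**Figure D4:**
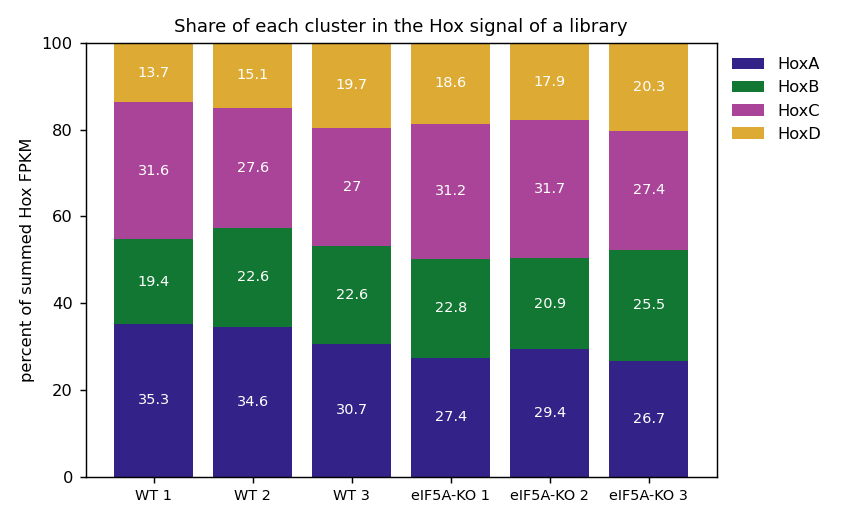
Percent of the summed Hox FPKM of each library (vertical axis) that falls in each cluster (colours), with the value printed in each part. HoxA takes 30.7% or more in the 3 WT libraries and 29.4% or less in the 3 libraries labelled eIF5A-KO.

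Genes that set limb identity were compared per length. No fore-limb library was analysed here. Pitx1 and Tbx4, which specify the hind limb, had means of 3.18 and 2.07 FPKM, and Tbx5, which specifies the fore limb, had 0.231 FPKM. In every library the Tbx4 level, 1.54 to 2.72 FPKM, was above that of Tbx5, 0.175 to 0.298 FPKM. Isl1, an early gene of the hind-limb field, had a mean of 0.155 FPKM, below that of Tbx5. The labelled tissue is hind-limb muscle. Pitx1 had 6.01, 5.46 and 7.32 CPM in WT and 13.6, 11.5 and 7.14 CPM in the libraries labelled eIF5A-KO, with a log2 fold change of 0.78 (standard error 0.28, unadjusted p = 0.0197, adjusted p = 0.576 by edgeR). Replicates 1 and 2 labelled eIF5A-KO were above all WT libraries and replicate 3 lay among them. Tbx4 had 5.75, 9.33 and 7.15 CPM in WT and 7.34, 7.76 and 5.27 CPM in the libraries labelled eIF5A-KO (log2 fold change -0.13, adjusted p = 0.972), and for Tbx5 the log2 fold change was 0.46 (adjusted p = 0.893). For Lmx1b, the gene of the dorsal limb, it was 0.36 (adjusted p = 0.913), and 0.15 to 0.56 when single libraries were left out. Pax3, a gene of migrating limb muscle precursors, was not tested, with 0.118 to 1.59 CPM.

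Of the 22 genes listed for limb position and identity, 19 were tested, 5 were higher at an unadjusted p under 0.05 (2.74% of all tested genes were), none was lower and none passed the adjustment. The median log2 fold change was 0.21. Besides Pitx1 these were Hand2, Tbx2, Tbx3 and Msx1. Hand2, a gene of the posterior limb bud, had 17, 18 and 17 counts in WT and 37, 36 and 34 in the libraries labelled eIF5A-KO, with a log2 fold change of 1.04 (unadjusted p = 0.00911, adjusted p = 0.495 by edgeR) and no overlap. Tbx3 had 15.9, 28.8 and 32.0 CPM in WT and 46.5, 35.9 and 38.9 CPM in the libraries labelled eIF5A-KO (log2 fold change 0.66, adjusted p = 0.660), and Tbx2 6.85, 10.9 and 12.4 against 18.4, 14.0 and 13.8 CPM (log2 fold change 0.61, adjusted p = 0.697). Msx1 had 6.40, 8.11 and 7.44 CPM in WT and 12.4, 7.93 and 14.6 CPM in the libraries labelled eIF5A-KO (log2 fold change 0.67, adjusted p = 0.646). The unadjusted p was under 0.05 in all 17 alternative settings for Hand2, in 14 for Pitx1 and Tbx3, in 13 for Tbx2 and in 12 for Msx1. With library size alone it was 0.0758 for Tbx2, 0.0685 for Tbx3 and 0.0532 for Msx1, and without replicate 1 labelled eIF5A-KO it was 0.0751 to 0.139 for these 3 and Pitx1. Each other library, left out alone, also ended the call of 1 or 2 of these 4 genes. Beside these stand the summed mural and Schwann cell markers, also higher in the libraries labelled eIF5A-KO without overlap, and the tendon markers, lower without overlap. The part of these cells in the limb gene values was not tested. In the list for head muscle, 3 of 4 genes were tested and none had an unadjusted p under 0.05.

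**Figure D5:**
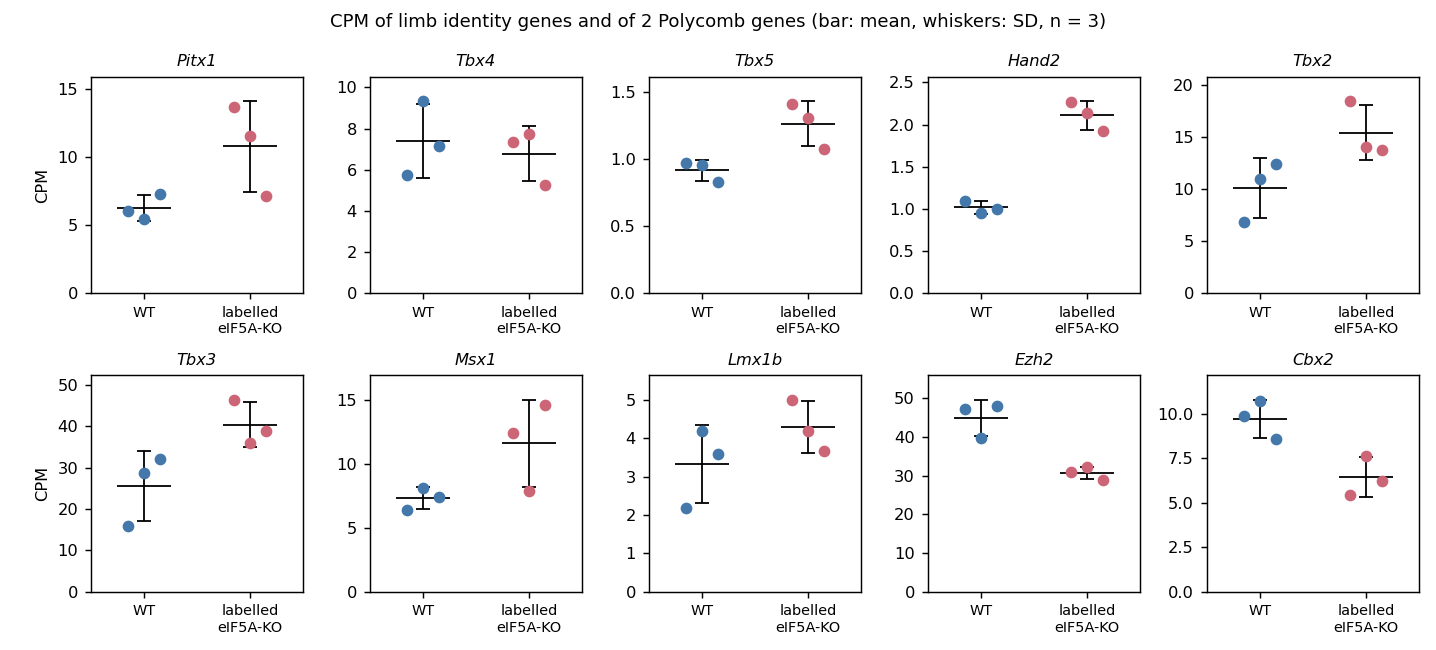
CPM (vertical axes, each from 0) of 8 genes of limb identity and of Ezh2 and Cbx2 in the 3 WT libraries and the 3 libraries labelled eIF5A-KO, with the mean (bar) and SD (whiskers). Hand2 lies between 0.955 and 1.10 CPM in WT and between 1.93 and 2.26 CPM in the libraries labelled eIF5A-KO, and Ezh2 is lower in all 3 of the latter.

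The TALE proteins bind DNA together with Hox proteins. Of the 8 TALE homeodomain genes described, 7 were tested, 3 above 0 and 4 below, with a median log2 fold change of -0.01 and none with an unadjusted p under 0.05. Pbx3 had 16.2 to 18.4 CPM in WT and 15.5 to 16.2 CPM in the libraries labelled eIF5A-KO (log2 fold change -0.12, 95% interval -0.50 to 0.25). Meis1 had 4.67 to 5.88 and 4.31 to 6.42 CPM (0.03, -0.54 to 0.61), and Meis2 8.27 to 11.1 and 9.86 to 10.4 CPM (0.15, -0.32 to 0.62). Leaving out single libraries gave log2 fold changes of -0.17 to -0.07 for Pbx3 and 0.08 to 0.31 for Meis2.

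Hox genes are held on or off by chromatin proteins, the Polycomb group and the Trithorax group, and are first switched on by Cdx factors and retinoic acid receptors. Of the 25 genes listed for this control, 22 were tested, none was higher and 2 were lower at an unadjusted p under 0.05 (4.02% of all tested genes were), and none passed the adjustment. The median log2 fold change was -0.06. Ezh2, the methyltransferase of Polycomb repressive complex 2, had 47.4, 39.7 and 48.1 CPM in WT and 30.9, 32.1 and 29.0 CPM in the libraries labelled eIF5A-KO. The groups did not overlap, and the log2 fold change was -0.55 (standard error 0.17, 95% interval -0.93 to -0.18), with an unadjusted p of 0.00817 and an adjusted p of 0.495 by edgeR. Cbx2, a reader of the mark that Ezh2 sets, had 9.89, 10.7 and 8.56 CPM in WT and 5.45, 7.64 and 6.24 CPM in the libraries labelled eIF5A-KO (log2 fold change -0.59, unadjusted p = 0.0271, adjusted p = 0.642). Its unadjusted p was 0.0751 without WT replicate 2, 0.0962 without replicate 1 labelled eIF5A-KO and 0.0633 without replicate 3 labelled eIF5A-KO, whereas that of Ezh2 was under 0.05 in all 17 settings. Cdx2 and Cdx4 had no count in any library. Whether these genes bear on the Hox values was not tested.

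Between their outermost described genes the clusters also hold 38 genes that are not protein coding, among them antisense RNAs and microRNA genes, and 14 of these had no count. Of them, 4 passed the filter, and none had an unadjusted p under 0.05. Their summed level was 7.26 to 12.2 CPM in WT and 7.82 to 10.6 CPM in the libraries labelled eIF5A-KO. Another 3 protein-coding genes without a Hox symbol lie inside the clusters, and none was tested. In GENCODE vM21, 38 of the 39 Hox identifiers were found, 37 with the same coordinates, and those missing or different are both Hoxd4. By this annotation 15 Hox genes share exonic bases with another gene. They are Hoxd3, Hoxd4 and 13 tested genes, of which 7 share at least 10% of their own with 1 other gene, and no Hox transcript aligned to a gene elsewhere in the genome over 200 bases or more at 90% identity.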

How the data were processed

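Primary myoblasts were profiled by bulk RNA-seq, in 3 WT libraries and 3 libraries labelled eIF5A-KO. RNA was extracted with TRIzol and libraries were made with an NEBNext Ultra kit. The authors mapped the reads to mm10 with HISAT (version not given in the sources used here) and deposited raw counts of reads per gene, with the gene symbol, type, length and coordinates. The methods name DEGSeq2 for the coverage of genes and do not describe the rule for reads that map to several places or to overlapping genes. The authors also deposited FPKM values. The library size behind each FPKM column was found to be a median-of-ratios factor times the geometric mean total (0% difference), so that FPKM values are already scaled between libraries.

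Counts were tested with edgeR 4.0.16 in R 4.3.3, with the default limits of filterByExpr, TMM factors, a prior count of 0.125 and the quasi-likelihood F test. Benjamini-Hochberg adjustment was over all 14679 tested genes, with a threshold of 0.05. Standard errors and 95% intervals of log2 fold changes come from the same fit. Total counts were 16281216 to 17734551 per library, at which 3 counts equal 0.159 to 0.194 CPM. Reads carry no molecular identifiers, so that this floor covers counting error alone. The 3 replicates of each genotype differed by more than sampling noise, and all were kept.

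The Hox genes and the gene lists were chosen with earlier results of these data known. Full statistics are given for Hox genes with an unadjusted p under 0.05, for the 3 with the highest mean FPKM in each cluster and for Eif5a. From the lists, Pitx1, Tbx4, Tbx5, Lmx1b, Pax3, Meis1, Meis2, Pbx3 and the genes with an unadjusted p under 0.05 are named. Other genes were named after their values were seen. Another gene that meets the rule for Hox genes and another of the TALE list are not reported here and were left out of every count over these lists, though not of the fit. Of the marker lists, members are given as sums and counts only. The alternatives were other scaling factors, library size alone, scaling without mitochondrial and the 10 most abundant genes, no filter, a minimum of 10 counts in each library, and as other tools DESeq2 1.42.0, limma-voom and limma 3.58.1 on log2(FPKM + 1) or log2(FPKM + 0.1). A replicate block and leaving out each library were also tried. Gene overlaps were read from GENCODE vM21 and similar transcripts were searched with blastn 2.17.0. Start regions are from RefSeq (GRCm38.p6).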

Additional observations from a re-analysis of the deposited data

How the results depend on the processing

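No Hox gene had an adjusted p under 0.05 in any of the 17 alternative settings, whereas the count over all genes, 3 in the reported fit with edgeR, moved with the scaling, the filter and the tool. It was 0 with DESeq2's size factors (992 genes at an unadjusted p under 0.05), 0 with library size alone (966), 0 with at least 10 counts in every library (907 of 13454 genes), 0 with limma-voom (961), 0 with limma on log2(FPKM + 1) or log2(FPKM + 0.1) (980 each), 88 with DESeq2 and 249 with no filter, where 26956 genes were tested. Without single libraries it was 0 to 56, the highest without WT replicate 1. No pairing by replicate number was seen: deviations of same-numbered libraries correlated at 0.10, -0.22 and 0.11. Those of differently numbered libraries correlated at -0.31 to 0.34, so that this measure does not decide on pairing. With the replicate block 24 genes passed, none of them a Hox gene.

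The number of Hox genes at an unadjusted p under 0.05, 1 as reported, was 0 to 2 without single libraries. It was 2 without WT replicate 3, and 0 without WT replicate 2 and without replicate 1 or 2 labelled eIF5A-KO. The number past the criterion of the study, 1, was 0 on log2(FPKM + 1) and 0 on log2(FPKM + 0.1), where the pseudocount shrinks the fold of low genes, and 0 to 1 without single libraries, with 0 for the same 3. The median log2 fold change of the tested Hox genes, 0.17, was 0.14 with library size alone, 0.12 on log2(FPKM + 1) and 0.12 to 0.27 without single libraries. No scaling moved the median of all genes by over 0.1.

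The log2 fold change of Hoxb3 was -0.0092 with library size alone and that of Hoxa3 was 0.0040 on log2(FPKM + 0.1), both of opposite sign to the reported value. Without single libraries, 13 of 43 named genes changed sign, with ranges of -0.40 to 0.26 for Hoxa3, -0.16 to 0.015 for Hoxa5, -0.22 to 0.068 for Hoxa7, -0.12 to 0.12 for Hoxa10, -0.38 to 0.46 for Hoxb3, -0.12 to 0.28 for Hoxb8, -0.14 to 0.084 for Hoxc4, -0.30 to 0.052 for Hoxc6, -0.020 to 0.34 for Hoxc8, -0.053 to 0.38 for Hoxc9, -0.11 to 0.17 for Meis1, -0.27 to 0.074 for Tbx4 and -0.13 to 0.23 for Eif5a. The cause was not tested. At 5 to 34 counts per library, as for Hoxa6 and Hoxd10, the 95% intervals reach past a 2-fold change, but so does that of Hoxa11 at 88 to 239 counts, whereas that of Hoxb2 at 21 to 30 counts does not. Depth and the spread between libraries were not separated as limits.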
